A study of Mus musculus with 8 samples.

Results

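The 9 genes studied belong to antigen presentation by MHC class II, and they were followed through 4 peak lists of dendritic cells (DCs). They were 9 of the 37310 genes of the annotation and were taken by name. Of these, 3 encode chains of the classical class II molecules (H2-Aa, H2-Ab1 and H2-Eb1). Cd74 encodes the invariant chain, H2-DMa, H2-DMb1 and H2-DMb2 encode chains of the peptide editor DM, H2-Oa encodes a chain of the DM modulator DO, and Ciita encodes the class II transactivator. For each gene the binding peaks of the transcription factor NFATc2 with a summit within 100 kb of a transcription start site (TSS) were collected. The peaks of trimethylated lysine 4 of histone 3 (H3K4me3) that overlapped the gene or lay within 1 kb of a TSS were collected as well.

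The cells were of D1, a DC line grown long-term from the spleen of C57BL/6 mice and kept in medium with GM-CSF. NFATc2 was mapped with an anti-V5 antibody in D1 cells that had been transduced with a lentivirus, sorted for low GFP and stably carried NFATc2 with a V5 tag, after 30 min of 10 μg/ml curdlan. H3K4me3 was mapped in non-treated (NT) D1 cells, at 2 h of 10 μg/ml curdlan, and at 2 h of curdlan given with FK506. The 8 libraries were 4 ChIP libraries and 4 inputs, so that each condition had 1 ChIP library, and no NFATc2 list from resting or FK506-treated cells was analysed here. The comparisons asked where NFATc2 lay around these genes and how their H3K4me3 mark differed with curdlan and with FK506.

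MHC class II molecules carry peptides from endosomes to the cell surface, where CD4+ T cells read them, and DCs are among the cells that do this best. The invariant chain fills the groove of a new class II molecule, DM exchanges its remnant for other peptides, and DO restrains DM. The promoters of the class II, invariant chain and DM genes share an X box, which binds the RFX complex, an adjoining X2 box, and a Y box with the letters CCAAT or their complement, which binds NF-Y. CIITA has no DNA-binding domain of its own and docks onto these proteins, so its own expression sets that of the whole group. Ciita has several alternative promoters, of which the most upstream is known from DCs and macrophages. Curdlan is a β-glucan that engages dectin-1 and thereby calcineurin and NFAT, FK506 inhibits calcineurin, and H3K4me3 marks active promoters.

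The sequences before the start of 5 of the genes, those with a match to the X box core in this window, are shown with the letters of these boxes marked. Each is the 250 bases upstream of the first TSS of a protein-coding transcript, written 5′ to 3′ on the gene's own strand from the NCBIM37 genome, the assembly called mm9. Capitals mark the X box core ACNGATG or its complement, the X2 box letters TGACGTCA, and CCAAT or its complement ATTGG. They lie at chr17:34424773-34425022 (H2-Aa, minus strand), chr17:34399904-34400153 (H2-Ab1), chr17:34442578-34442827 (H2-Eb1), chr17:34282008-34282257 (H2-DMb2) and chr17:34229035-34229284 (H2-Oa), with the last 4 on the plus strand.
H2-Aa: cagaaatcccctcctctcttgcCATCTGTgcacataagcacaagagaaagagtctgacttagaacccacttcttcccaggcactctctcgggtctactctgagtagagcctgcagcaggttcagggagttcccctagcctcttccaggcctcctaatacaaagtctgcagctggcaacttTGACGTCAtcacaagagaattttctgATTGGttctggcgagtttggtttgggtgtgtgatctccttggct
H2-Ab1: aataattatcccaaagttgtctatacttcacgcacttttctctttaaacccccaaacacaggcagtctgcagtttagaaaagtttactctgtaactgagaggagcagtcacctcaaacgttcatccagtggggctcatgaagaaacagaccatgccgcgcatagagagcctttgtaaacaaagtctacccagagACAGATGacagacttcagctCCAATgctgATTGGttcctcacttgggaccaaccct
H2-Eb1: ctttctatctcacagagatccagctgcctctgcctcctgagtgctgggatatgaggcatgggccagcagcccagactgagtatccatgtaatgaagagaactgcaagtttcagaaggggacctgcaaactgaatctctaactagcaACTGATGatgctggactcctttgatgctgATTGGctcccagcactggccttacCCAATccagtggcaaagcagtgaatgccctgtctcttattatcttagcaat
H2-DMb2: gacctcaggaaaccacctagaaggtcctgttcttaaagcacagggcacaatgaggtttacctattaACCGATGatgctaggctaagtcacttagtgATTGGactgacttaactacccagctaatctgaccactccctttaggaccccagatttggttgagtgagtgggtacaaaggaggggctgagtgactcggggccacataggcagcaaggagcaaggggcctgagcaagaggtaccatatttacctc
H2-Oa: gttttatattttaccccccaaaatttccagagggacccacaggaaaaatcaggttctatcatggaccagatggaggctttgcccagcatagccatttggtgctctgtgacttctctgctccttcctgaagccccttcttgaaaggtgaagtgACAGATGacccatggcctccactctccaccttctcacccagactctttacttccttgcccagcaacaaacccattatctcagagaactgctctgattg

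The X box core ACNGATG was found on either strand in 5 of the 9 promoters, against 7.87% of the 22372 promoters of the same length. In H2-Ab1 it spanned 56 to 50 bases before the start, in H2-Eb1 104 to 98 bases, in H2-Oa 98 to 92 bases and in H2-DMb2 184 to 178 bases. CCAAT in either orientation was present in 5 of 9 (H2-Aa, H2-Ab1, H2-Eb1, H2-DMb2 and Cd74), against 35.01% of all promoters. In H2-Ab1 and H2-Eb1 an ATTGG followed the X box core after 22 bases, and in H2-DMb2 after 23 bases. This order with 20 to 25 bases between the 2 boxes, a spacing chosen after the sequences were seen, was present in 15 of the 22372 promoters, or 0.067%. In H2-Aa the match to the X box core stood on the other strand, 228 to 222 bases before the start. It lay far from TGACGTCA at 70 to 63 bases, which was followed by ATTGG. This match did not adjoin the X2 letters, and H2-Aa is counted among the 5 by letters alone. TGACGTCA stood in 1.94% of all promoters and in no other of the 9. Among the first coding starts of the 9 genes, the NFAT core GGAAAA was found in the promoter of H2-Oa alone, against 20.6% of all promoters. These matches describe letters in a fixed window, and a missing match says nothing about a box in another place or spelling. At H2-DMb1, for example, ACTGATG followed by ATTGG lay just beyond the annotated start, outside the window searched. The absence of H2-DMb1 from these counts is therefore no sign that it lacks this order of boxes.

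The 3 NFATc2 summits shown here are given with 100 bases to either side, as the plus strand of the same genome, to set the NFAT letters beside the point of highest signal. All 3 hold GGAAAA, as 8 of the 26 sites near the genes did, so they do not stand for the rest. The windows at the summits nearest H2-Ab1, Cd74, H2-DMb1 and H2-DMb2 hold no copy and are not shown. Capitals mark GGAAAA or its complement TTTTCC and, in the H2-Ab1 window, the complement of the composite ETS and IRF letters GGAANNGAA. The windows are chr16:10479847-10480047 before Ciita, chr17:34441736-34441936 before H2-Eb1 and chr17:34394673-34394873 before H2-Ab1. The first lies in intergenic sequence, the second in an exon of Gm20513, a gene that overlaps the H2-Eb1 region, and the third in intergenic sequence.
Ciita summit: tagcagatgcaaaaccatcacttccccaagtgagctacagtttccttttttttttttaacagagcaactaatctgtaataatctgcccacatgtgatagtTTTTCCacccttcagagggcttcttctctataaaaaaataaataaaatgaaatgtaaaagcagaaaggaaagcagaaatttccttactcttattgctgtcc
H2-Eb1 summit: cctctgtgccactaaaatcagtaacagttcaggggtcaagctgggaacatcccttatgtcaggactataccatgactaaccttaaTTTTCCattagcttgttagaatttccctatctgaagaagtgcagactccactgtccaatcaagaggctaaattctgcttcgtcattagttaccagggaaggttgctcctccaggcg
H2-Ab1 distal summit: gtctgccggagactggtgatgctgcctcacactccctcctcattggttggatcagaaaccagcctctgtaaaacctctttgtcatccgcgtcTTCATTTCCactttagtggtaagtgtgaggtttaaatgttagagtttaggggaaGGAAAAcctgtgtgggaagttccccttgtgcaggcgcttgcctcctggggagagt

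At the Ciita site the NFAT letters covered the summit base itself, at H2-Eb1 the nearest copy was 15 bp from the summit and at the distal H2-Ab1 site 46 bp. Over all sites near the 9 genes, GGAAAA lay within 100 bp of the summit at 8 of 26. The share among all 9438 NFATc2 summits was 45.6%, and in windows of the same length beside them it was 18.0%. Somewhere within the peak, 21 of the 26 held a copy. The peaks are much longer than these windows, and the share over all NFATc2 peaks was not counted, so this count has no background. The X box core lay in 6 of the 26 windows, among them that of the H2-DMb1 site, against 9.29% of all summits. The AP-1 letters TGANTCA were present at 4 of 26 windows, against 21.8% of all summits, and GGAANNGAA at 7 of 26, against 14.9%.

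The ChIP libraries held 14377535 tags for NFATc2 and 16662316 to 21289349 for H3K4me3, with 9438 NFATc2 peaks and 14872 to 15799 H3K4me3 peaks. Of 8 dendritic and myeloid markers, 7 had a H3K4me3 peak within 1 kb of a TSS in every H3K4me3 list. They included Itgax, Zbtb46 and Clec7a, which encodes dectin-1, while Flt3 had none. Their summed level was 695 to 741 RPM, which are tags per 1000000 ChIP tags of the library. No B cell (0 of 5) or fibroblast marker (0 of 4) was marked, 1 of 4 T cell markers (Lck), 1 of 3 epithelial (Cdh1) and 1 of 3 erythroid markers (Klf1) were, and this was the same in all 3 lists. Summed levels were 19.7 to 23.2 RPM for the T cell list, 105 to 112 for the epithelial and 18.0 to 23.2 for the erythroid list. Levels are given as RPM with a 95% exact Poisson interval, and ratios with an exact conditional binomial interval. These intervals cover counting error only. With 1 library per condition no test between conditions was possible, so a difference beyond its interval may still lie within the spread between cultures, which was not measured. A gene was called higher or lower past a change of 1.5-fold.

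NFATc2 was found close to most of the class II genes. In total, 26 distinct NFATc2 summits stood at most 100 kb from a TSS of the 9 genes, 13 on chromosome 17, 9 on chromosome 16 and 4 on chromosome 18. A summit lay within 1 kb of a TSS at 6 of 9 genes, within 10 kb at 8 of 9 and within 30 kb at 9 of 9. The background was 3.76%, 13.2% and 26% of all genes at these distances. Among genes with a H3K4me3 peak after curdlan, it was 9.41%, 26.5% and 44.5%. With peaks of a MACS p-value of 1e-10 or less, 4 of 9 genes had a summit within 1 kb, since the nearest one was then 5381 bp from H2-Ab1 and 9911 bp from H2-DMb1. With starts of protein-coding transcripts alone it was 5 of 9, without H2-DMb2. At 100 kb, the distance of the rule, the count was 9 of 9 against 49.2% of all genes and 73.8% of marked genes. The 7 genes on chromosome 17 are neighbours and share summits, so the 9 genes are not independent. Only 12 of the 26 sites had one of the 9 as the gene with the nearest TSS.

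The sites at the classical genes held many tags, in long peaks. The summit nearest H2-Ab1, which encodes the β chain of the A molecule, was 564 bp upstream of its TSS, with 210 tags and a fold enrichment over input of 8.08. Another lay 5381 bp upstream, with 174 tags and a fold of 7.67. The H2-Eb1 site, before the gene of the E β chain, was 992 bp upstream, with 234 tags and a fold of 19.3, and Gm20513 had the nearer TSS at 829 bp. Both proximal sites were above at least 94.4% of all NFATc2 peaks in tags, although the fold at H2-Ab1 was in the low end of the list at percentile 8.94. Their peaks measured 3208 bp at H2-Ab1 and 3384 bp at H2-Eb1, where the median NFATc2 peak had 1063 bp and 63 tags. H2-Aa, which encodes the α chain of the A molecule and runs towards H2-Ab1, had no summit within 1 kb. Its nearest sites were 5902 and 8751 bp upstream, with 207 and 196 tags and folds of 10.4 and 9.88, in an intron of Gm20513 and outside every H3K4me3 peak.

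**Figure D1:**
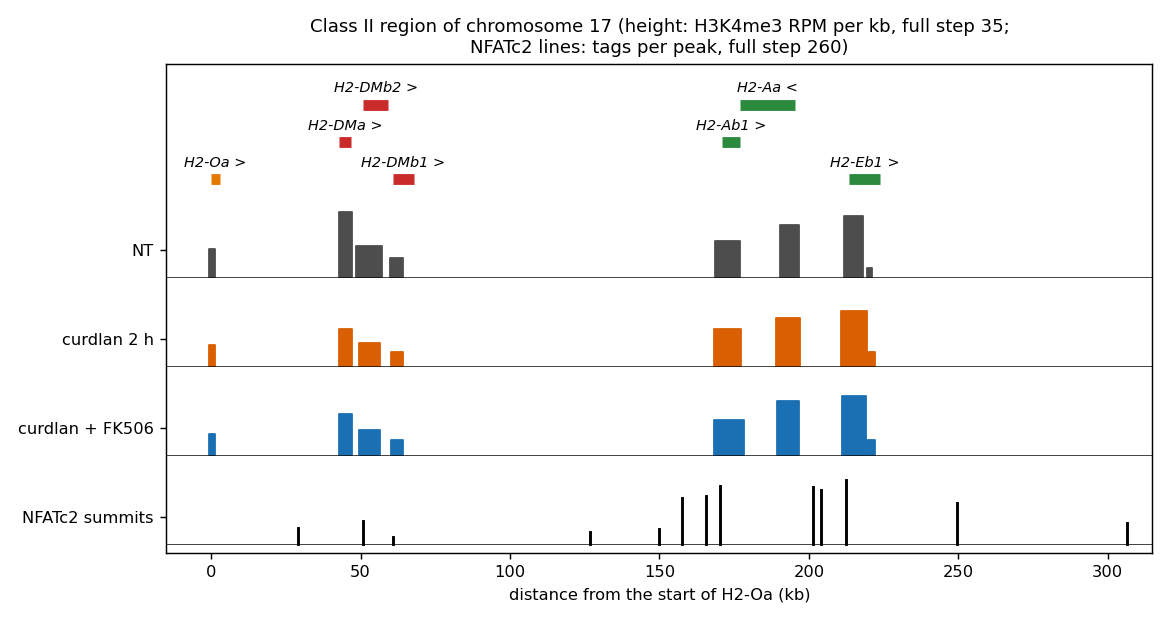
H3K4me3 peaks of the 7 genes on chromosome 17 in the 3 lists and the 13 NFATc2 summits around them, by distance from the start of H2-Oa in kb. The height of a block is the H3K4me3 RPM per kb of that peak, the height of a line is the tag count of that NFATc2 peak, and arrows give the direction of each gene. The tall NFATc2 lines (150 to 234 tags) stand around H2-Ab1, H2-Aa and H2-Eb1, and those near the DM genes and H2-Oa are short (27 to 83 tags). The fold enrichment does not follow this order. At the nearest summits it was 8.08 for H2-Ab1, 10.4 for H2-Aa and 19.3 for H2-Eb1. It was 16.98 for H2-DMb1, 8.76 for H2-DMb2 and H2-DMa, and 24.0 for H2-Oa.

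NFATc2 peaks at the DM genes and nearest to H2-Oa held fewer tags and were shorter, at 740 to 1402 bp. The H2-DMb1 site had its summit 14 bp upstream of the TSS and held 27 tags, fewer than most peaks of the list (percentile 7.67), with a fold of 16.98 and a p-value of 8.1e-08 from MACS. H2-DMb1 and H2-DMb2 encode 2 alternative β chains of DM. The H2-DMb2 site lay 146 bp before a noncoding start and 2152 bp before the protein-coding start, with 83 tags and a fold of 8.76. The same site was the nearest one to H2-DMa, 6133 bp downstream of a noncoding start of this α chain gene and 7979 bp downstream of its protein-coding start. The nearest site to H2-Oa was 28907 bp downstream of the nearest start, in an exon of Brd2 and 418 bp from the start of Brd2, with 57 tags and a fold of 24.0. At H2-Aa, H2-DMa and H2-Oa, then, no NFATc2 summit was listed within 1 kb of a start.

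Cd74 and Ciita each had a site just before the first start. The Cd74 summit was 153 bp upstream of the TSS, with 173 tags and a fold of 17.1. A further summit in an exon of Cd74, 8297 bp from the nearest start of the gene, held 123 tags and had the lowest fold of the 26 sites, 5.3. It also lay in an exon of AC139759.1, which had the nearer TSS at 77 bp. Ciita was the nearest gene to more of the sites than any other of the 9. Its first start had a summit 290 bp upstream, with 175 tags and a fold of 15.9, and another 2318 bp upstream with 63 tags. A site 542 bp before the most downstream start held 50 tags, and 2 intronic sites 9681 and 10966 bp beyond that start held 77 and 99 tags. The largest of the 26 sites by tags, with 255 tags, a fold of 20.2 and a p-value of 1.5e-60, was 19383 bp upstream of Ciita, in intergenic sequence where Fam18a had the nearer TSS at 13399 bp.

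Of the 26 summits, 10 lay inside a H3K4me3 peak of NT cells, as did 23.8% of all NFATc2 summits. These 10 included the sites nearest to H2-Ab1, H2-Eb1, Cd74, the DM genes and Ciita, and all 10 lay inside a H3K4me3 peak in each of the 3 lists. The sites at 19383 bp from Ciita and in introns of Gm20513 and H2-Ob lay in no H3K4me3 peak of any list. The distal H2-Ab1 site with 174 tags lay inside a peak in the list with FK506 alone, and the Cd74 exon site with 123 tags in the curdlan list alone.

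All 9 genes carried H3K4me3 in every list, against a background of 35.6% of all genes in the NT list, 35.4% in the curdlan list and 35.3% in the list with FK506. Between genes the mark was compared as RPM per kb, summed over all peaks of a gene. In NT cells H2-DMa was densest (32.0), followed by Cd74 (28.3), H2-Eb1 (24.9), H2-Aa (21.1), Ciita (18.6), H2-Ab1 (17.7), H2-DMb2 (15.5), H2-Oa (13.7) and H2-DMb1 (9.61). Neighbours in this order had intervals that did not overlap, apart from Ciita (18.0 to 19.1) with H2-Ab1 (17.1 to 18.5) and H2-DMb2 (14.8 to 16.1) with H2-Oa (12.6 to 15.0). The order depends on the pooling, since H2-Aa includes the H2-Ab1 peak, and H2-Eb1 and Ciita include weaker peaks inside the gene. The promoter peaks alone had 30.0 RPM per kb at H2-Eb1, 26.4 at the first start of Ciita and 25.6 at H2-Aa. With curdlan the order differed, with H2-Eb1 (22.0) and H2-Aa (20.9) on top, H2-DMa at 18.4 and Ciita at 11.4. Peaks at these promoters were also long. Of the 10 NT peaks within 1 kb of a TSS, 7 were in the longest 5% of the list, and the exceptions were those of H2-DMa, H2-DMb1 and H2-Oa. The median length of all NT peaks was 2371 bp, and the H2-Ab1 and H2-DMb2 peaks measured 8.57 and 8.58 kb.

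**Figure D2:**
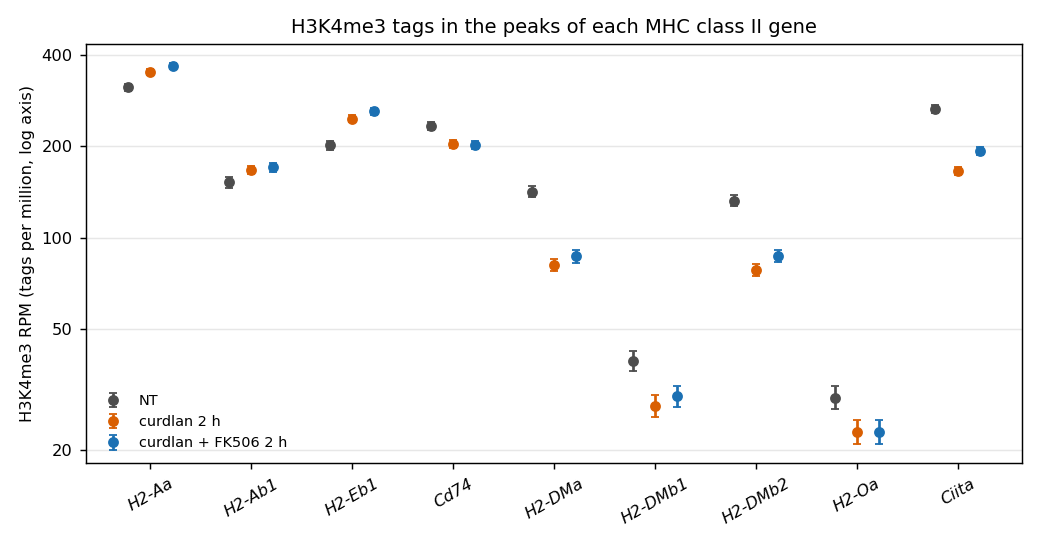
H3K4me3 RPM summed over the peaks of each gene, on a log axis, with bars for the 95% Poisson interval of the 1 library per condition. The 3 classical genes were lowest in NT cells, whereas Cd74, the DM genes, H2-Oa and Ciita were highest there. By the fold enrichment over input at the summit H2-Eb1 was lower with curdlan than in NT, and Cd74, the DM genes and H2-Oa were higher.

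In summed RPM the classical genes and the genes that load and control them lay on different sides of NT with curdlan. The mark was 1.10 to 1.22 times the NT level at the 3 classical genes, 0.871 times at Cd74, and 0.574 to 0.770 times at the DM genes, H2-Oa and Ciita. In all, 3 of 9 genes were called lower past 1.5-fold (H2-DMa, H2-DMb2 and Ciita), where 3.96% of the 13019 genes with a peak in both lists were. None was called higher, where 2.58% were. The median log2 ratio of the 9 genes was −0.38, against −0.13 over all genes. At most genes, then, RPM lay slightly lower with curdlan. Of all tags, 57.9% lay in peaks in NT, 52.8% with curdlan and 51.3% with FK506 added. How far this share moved the median of all genes was not tested. Relative to that median the log2 ratios were −0.67 for H2-DMa, −0.63 for H2-DMb2 and −0.55 for Ciita, and Cd74 was near the typical gene at −0.07. Called in this way, 2 of 9 genes were lower (H2-DMa and H2-DMb2), where 1.87% of all genes were, and none was higher, where 3.77% were. In RPM per kb, which sets the length of the peak aside, the log2 ratio of H2-DMb2 was −0.43, short of a call. The 2 genes called lower were H2-DMa and Ciita. By that measure 8 of 9 ratios were below 1, among them H2-Aa (log2 ratio −0.01) and H2-Eb1 (−0.17), and H2-Ab1 (0.06) was above. By the fold enrichment over input at the summit, the curdlan over NT ratio was above 1 at Cd74, the 3 DM genes and H2-Oa (1.07 to 3.32). At H2-Eb1 it was below 1 (0.818). These directions are the opposite of those in summed RPM. The median of the fold enrichment ratio over all genes was shifted by 0.73 on the log2 scale.

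**Figure D3:**
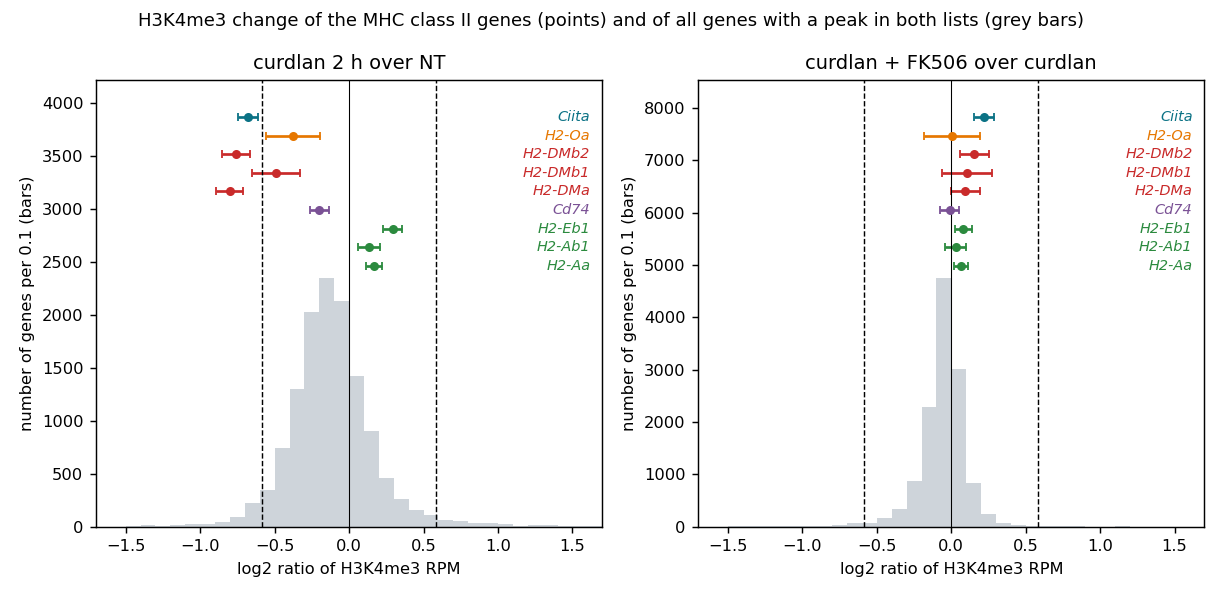
Log2 ratio of H3K4me3 RPM for each gene (points, with 95% counting intervals) above the distribution over all genes with a peak in both lists (grey bars, genes per bin of 0.1). Dashed lines mark 1.5-fold. In the left panel the classical genes lie to the right of the bulk of genes and Ciita, H2-DMa and H2-DMb2 beyond the left line, and in the right panel all 9 lie between the lines. By the fold enrichment over input the DM genes, Cd74 and H2-Oa lay above NT and H2-Eb1 below.

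Among the classical genes H2-Eb1 had the highest ratio. Its level was 202 RPM in NT cells, 247 after curdlan and 261 with FK506 added. The ratio of curdlan to NT was 1.22 (1.17 to 1.28), at percentile 93.3 among the ratios of all genes. The peak at its promoter, which also overlaps Gm20513, measured 6.46 kb in NT and 8.43 kb with curdlan. Another peak inside the gene was small in NT, with 125 tags or 7.50 RPM over 1.65 kb. With curdlan it held 422 tags or 19.8 RPM over 2.78 kb, a ratio of 2.64 (2.16 to 3.25), and with FK506 added it held 392 tags or 20.1 RPM. Both treated libraries were therefore high and NT low at this intragenic peak. Peaks were called in each list on its own, and the summed length over both was 8.11, 11.2 and 10.98 kb.

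H2-Ab1 differed less, with 152 RPM in NT, 167 with curdlan and 171 with FK506 added, a first ratio of 1.10 (1.04 to 1.16). Its peak measured 8.57, 9.05 and 10.0 kb. By the rule this peak also counts for H2-Aa, because the annotated ends of the convergent genes meet within it, and the summed values of H2-Aa were 313, 352 and 367 RPM. The peak at the H2-Aa promoter alone had 161, 185 and 197 RPM, a ratio of 1.15 (1.09 to 1.20) for curdlan over NT, and measured 6.29, 7.79 and 7.40 kb. At each of the 3 genes NT was the lowest library and curdlan with FK506 the highest.

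At Cd74 the tags were lower and the peak longer. The level was 234 RPM in NT, 204 with curdlan and 202 with FK506 added, with a ratio of curdlan to NT of 0.871 (0.834 to 0.910). The peak measured 8.26, 10.2 and 9.08 kb. With curdlan it reached AC139759.1, which overlaps the end of Cd74, and with FK506 added it came within 1 kb of a TSS of AC139759.1.

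At the DM genes RPM were lower with curdlan, though not the fold enrichment over input at the summit, whose ratio to NT was 1.23 at H2-DMa, 1.07 at H2-DMb1 and 1.146 at H2-DMb2. H2-DMa had 142 RPM in NT, 81.4 with curdlan and 87.0 with FK506 added, a ratio of 0.574 (0.539 to 0.611) for curdlan over NT, at percentile 1.23 among all genes. Its peak hardly changed in length, with 4.43, 4.42 and 4.27 kb, so that the lower count was a lower density, 32.0 RPM per kb in NT and 18.4 with curdlan. H2-DMb2 had 133, 78.3 and 87.2 RPM, a ratio of 0.591 (0.554 to 0.630), and its peak also shortened from 8.58 to 6.84 kb. H2-DMb1 was lower throughout, with 39.3, 27.9 and 30.0 RPM, and its ratio was 0.711 (0.635 to 0.796), which did not pass 1.5-fold. NT was the highest library at all 3 DM genes, with no overlap of its interval with either treated library. H2-DMb1 and H2-DMb2 share stretches of sequence: 12.3% of the 50-base windows in the NT peak of H2-DMb1 also occurred in that of H2-DMb2. How reads from these stretches were placed was not tested. The 250-base windows before their coding starts had the same base in 48.1% of aligned columns. These windows are out of register, since the stretch that opens the H2-DMb2 window stands at the end of the H2-DMb1 window. This share is therefore no measure of how alike the promoters are.

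H2-Oa, the DO α chain gene, had 29.8 RPM in NT, 22.9 with curdlan and 23.0 with FK506 added. The ratio of curdlan to NT was 0.770 (0.678 to 0.874), at percentile 14.2, and the peak length was 2.17 to 2.20 kb in all lists. It had the shortest promoter peak of the 9 genes.

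Ciita, from which the rest of the group is controlled, had 265 RPM in NT, 166 with curdlan and 193 with FK506 added. The ratio of curdlan to NT was 0.625 (0.597 to 0.653). Both promoter regions were lower with curdlan. The peak over the first start, which is the one next to the NFATc2 summit at 290 bp, went from 172 to 108 RPM, a ratio of 0.628 (0.594 to 0.663). The peak over the downstream starts went from 84.1 to 50.5 RPM, a ratio of 0.600 (0.554 to 0.650). Their lengths were 6.52 and 6.50 kb, and 5.78 and 5.74 kb. With FK506 added these 2 peaks held 129 and 63.8 RPM. Another small peak, inside the gene, had 9.36 RPM in NT and 7.37 with curdlan. It was not listed with FK506, and a list holds no value where no peak passed the MACS threshold.

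**Figure D4:**
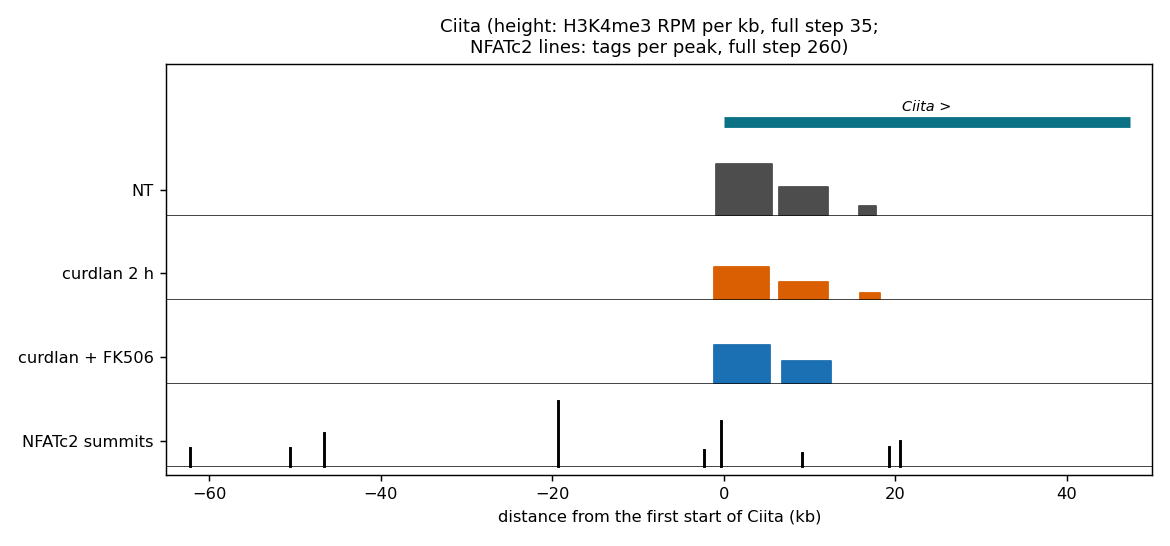
H3K4me3 peaks of Ciita in the 3 lists and the 9 NFATc2 summits within 100 kb, by distance from the first start of the gene in kb, with block height as RPM per kb and line height as NFATc2 tags. The blocks over the first and the downstream starts are tallest in NT and lowest with curdlan, and the tallest NFATc2 line stands 19.4 kb upstream, where no H3K4me3 peak was listed.

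The genes with higher and with lower RPM differed in form. At the 3 classical genes the summed peak length with curdlan was 1.06 to 1.38 times that in NT, and the density of tags per kb was 0.886 to 1.04 times. At the DM genes, H2-Oa and Ciita the length ratio was 0.797 to 1.02 and the density ratio 0.575 to 0.759. The median log2 density ratio over all genes was −0.18. The median length of all listed peaks was also greater with curdlan, at 2575 bp against 2371 bp in NT. The curdlan library held more tags as well (21289349 against 16662316), and how depth bears on peak length was not tested. Cd74 combined the longer peak of the first group (1.23 times) with a density nearer the second (0.706 times). At H2-DMa, 26.7% of the positions on both strands were filled by a tag in NT, the highest share of the 9 genes. MACS kept at most 1 tag per position, but its totals before and after filtering were equal in every library, so it removed none. If repeated tags had been dropped before MACS, such dense peaks would hold fewer tags than were sequenced, which was not tested. With a correction for filled positions, chosen after the data were seen, the log2 ratio of H2-DMa was −0.86 in place of −0.80.

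**Figure D5:**
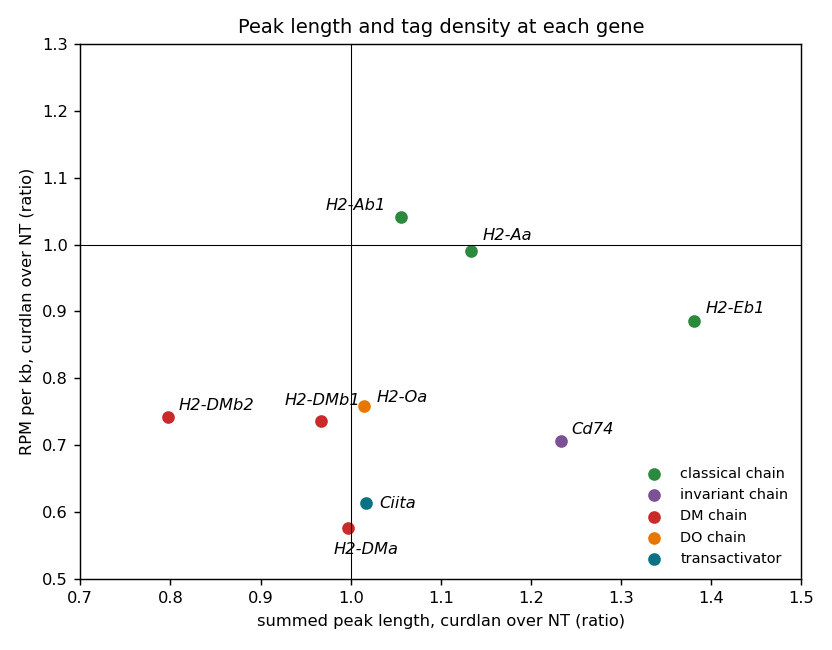
Ratio of summed peak length (x axis) and of RPM per kb (y axis), curdlan over NT, for each gene. The classical genes lie to the right with the highest density ratios, H2-Ab1 above 1 (1.04) and H2-Aa (0.991) and H2-Eb1 (0.886) below 1. The DM genes, H2-Oa and Ciita lie at or left of about equal length with lower density, and Cd74 at the lower right.

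With FK506 added, the RPM at the 9 genes differed from curdlan alone by less than 1.5-fold. Against curdlan alone, none of the 9 genes was called higher, where 0.516% of 12996 genes were, and none lower, where 1.67% were. The ratios ran from 0.992 at Cd74 to 1.16 at Ciita, and 8 of 9 were above 1, or 9 of 9 relative to the median of all genes. The fold enrichment over input went the other way, with 7 of 9 ratios below 1 and H2-Aa and H2-Ab1 (both 0.570, from their shared peak) and H2-Oa (0.554) lower past 1.5-fold. The median log2 ratio of the fold enrichment over all genes was −0.27, and relative to it none of the 9 was called lower. In RPM the median log2 ratio was 0.08 against −0.04 over all genes. Relative to the latter again none was called, where 0.592% were higher and 1.45% lower. Ciita had the largest ratio, 1.16 (1.11 to 1.22), at percentile 97.1. H2-DMb2 followed with 1.11 (1.04 to 1.19). The intervals of H2-Ab1, Cd74, H2-DMa, H2-DMb1 and H2-Oa included 1. Each of the 5 genes of loading and control remained below its NT level with FK506, at 0.613 to 0.771 times in RPM, and 2 of 9 were called lower (H2-DMa and H2-DMb2), where 4.99% of genes were. None was called higher, where 1.68% were. Relative to the median of all genes, −0.18 in that comparison, none of the 9 was called in either direction, where 3.02% of genes were higher and 1.95% lower. By the fold enrichment over input H2-DMb1 (1.48) and H2-Oa (1.84) lay above NT with FK506, H2-DMa was at 0.991, and H2-DMb2 (0.933) and Ciita (0.906) lay below. These comparisons share the curdlan or the NT library, so a chance deviation of one library enters 2 of them.

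Of the other genes of the pathway few were called. Of 23 listed genes 21 had a peak in both NT and curdlan, 1 was called higher (Irf8) and 1 lower (March1), beside 2.58% and 3.96% of all genes, so that both counts were near the background. Their median log2 ratio was −0.21, and that of all genes −0.13. All 7 factors that bind class II promoters (Rfx5, Rfxap, Rfxank, Nfya, Nfyb, Nfyc and Creb1) had ratios between 0.789 and 0.881, and none was called. Among 6 factors known to act on Ciita, Irf8, which encodes a transcription factor of DC development, had 29.9 RPM in NT, 46.6 with curdlan and 48.1 with FK506 added, a first ratio of 1.56 (log2 ratio 0.64, 0.49 to 0.80). Among 7 genes of endosomal processing and traffic, March1 had the lowest ratio. It encodes a ubiquitin ligase that removes class II molecules from the surface, and it had 169, 78.2 and 85.1 RPM, a ratio of 0.463 (0.435 to 0.492), at percentile 0.422 among all genes. For FK506 over curdlan none of the 21 genes was called, where 0.516% of all genes were higher and 1.67% lower.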

How the data were processed

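The sources were 4 peak lists, 1 for each ChIP library of D1 cells with its input. Reads had been aligned by the authors to the mm9 assembly (bowtie 1), and peaks were called in each library alone with MACS (1.4.2 in the file headers, with a p-value limit of 1e-05 and at most 1 tag per position). The deposited columns hold the count of tags per peak, not normalized, a score made from the −log10 of the p-value, the fold enrichment over local input as a ratio, and the FDR in percent. The authors' FDR and p-value were used as limits in alternatives, and the p-value is given for 2 sites.

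Here tags were divided by the header total of ChIP tags and scaled to 1000000 (RPM), summed over the peaks of a gene and compared as log2 ratios. The total was 14377535 tags for NFATc2 and 16662316, 21289349 and 19468498 for the NT, curdlan, and curdlan and FK506 libraries. Genes came from the Ensembl annotation of NCBIM37, the build of the lists. Sequences were read from that genome, and motifs were searched on both strands. The promoter sequence of H2-DMa is not reported here. Python 3.11.15, numpy 2.4.6, pandas 2.3.3 and scipy 1.17.1 were used, and the ratio and overlap steps were tested on simulated data. The named genes were the 9 genes, the pathway lists, the genes that share a peak with them, and for each the protein-coding gene with the nearest level in the 3 lists. These genes, the lists and the motifs were chosen with earlier results of these data known. Alternatives were other windows, limits, scalings and measures.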

Additional observations from a re-analysis of the deposited data

How the results depend on the processing

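No paired analysis was possible because each condition had 1 ChIP library, and leaving out a replicate was not possible for the same reason. Under the other windows, limits on p-value and FDR, and annotation with protein-coding transcripts only, every log2 ratio of the 9 genes kept its sign in all 3 comparisons. For curdlan and FK506 over NT, the number called lower was 2 as reported, 0 when centred on the median of all genes, 0 when scaled by tags in peaks, and 1 with RPM per kb. The fold enrichment of MACS gave another picture, with 4 genes higher and 0 lower for curdlan over NT, 3 lower for FK506 over curdlan, and 2 higher and 1 lower for FK506 over NT. By this measure H2-DMa (0.30) and H2-DMb2 (0.20) had positive log2 ratios of curdlan to NT, so their direction was reversed. The median of this measure over all genes was itself shifted by 0.73, −0.27 and 0.45 on the log2 scale in the 3 comparisons. For curdlan over NT the median gene was thus itself higher past 1.5-fold, so the 4 genes higher are no excess. The shares of all genes called by this measure were not counted. Centring on these medians was an alternative chosen after the data were seen. It gave 2 higher and 3 lower for curdlan over NT, and 1 higher and 0 lower for FK506 over curdlan. For FK506 over NT it gave 1 higher and 2 lower. With centring, 6 of 9 signs were kept for curdlan over NT. For FK506 over curdlan the fold enrichment kept 3 of 9 signs, or 2 of 9 when centred, and for FK506 over NT it kept 5 of 9 either way. The fold enrichment depends on the input at the point of the summit, and the cause of the difference was not tested. All other counts stayed within 1.5 times the reported count, but the genes called lower for curdlan over NT were H2-DMa and H2-DMb2 when scaled by tags in peaks, H2-DMa and Ciita in RPM per kb, H2-Eb1, H2-DMb1 and Ciita by the centred fold enrichment, and H2-DMb1 was added with peaks up to 5 kb from a TSS. In RPM per kb 8 of 9 ratios of curdlan to NT were below 1. Of the distances to the nearest NFATc2 summit, those of H2-Ab1 (5381 bp) and H2-DMb1 (9911 bp) moved with the stricter p-value, and those of H2-DMa (7979 bp), H2-DMb2 (2152 bp) and H2-Oa (28989 bp) with protein-coding starts.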

Other observations

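The region holds further class II genes. H2-Ob, which encodes the DO β chain, had 46.2 RPM of H3K4me3 in NT cells and 39.1 with curdlan, a ratio of 0.846 (0.766 to 0.934), and NFATc2 summits with 167 and 55 tags lay in its introns. H2-Eb2 and H2-Ea, a pseudogene in this annotation as C57BL/6 mice make no E α chain, had no H3K4me3 peak in any list. An NFATc2 summit with 150 tags and a fold of 16.99 lay in an annotated exon of the H2-Ea pseudogene, 36114 bp from the nearest start of H2-Eb1.

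Ifi30, which encodes a lysosomal thiol reductase that unfolds antigens, had 72.7 RPM in NT, 48.9 with curdlan and 50.3 with FK506 added. Its ratio of curdlan to NT was 0.672 (0.618 to 0.731), just short of the 1.5-fold change of a call. Ctss, the cathepsin that trims the invariant chain, had a ratio of 0.757 (0.699 to 0.819). H2-Ob, Ifi30 and Ctss were named after their values were seen.

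Among 11198 protein-coding genes, the one whose levels in the 3 libraries lay nearest to H2-DMa and also to H2-DMb2 was Cfp, which encodes properdin, with 135, 78.2 and 86.8 RPM. The nearest to Ciita was Id2, with 280, 182 and 202 RPM, and the nearest to H2-Eb1 was Nlrp3, with 196, 230 and 248. The remaining nearest genes were Bhlhe40 for H2-Aa, Chd2 for H2-Ab1, Map3k11 for Cd74, Zfp566 for H2-DMb1 and Abcd4 for H2-Oa. This likeness is a description of 3 libraries, taken as the Euclidean distance of log2 levels.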
